A study of Mus musculus with 18 samples.

Results

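The replication-type histone genes of the mouse stand in clusters, and their symbols begin with Hist1h to Hist4h. The deposited table held 64 rows with such symbols, and 56 of them had a value above 0 in at least 3 of the 18 libraries and are described here, out of 20825 genes in the table. Of the 56, 6 encode H1, 16 H2a, 12 H2b, 10 H3 and 12 H4, and 44 belong to the cluster Hist1, 8 to Hist2, 3 to Hist3 and 1 to Hist4. The 8 rows left out (Hist1h2ak, Hist1h2bl, Hist1h2bn, Hist1h2bp, Hist1h3f, Hist1h4f, Hist2h2bb and Hist2h3c1) were above 0 in 1 or 2 libraries, with highest values of 0.12 to 3.85 FPKM, while the 6 genes just inside the rule were above 0 in 3 libraries and reached 0.26 to 0.74 FPKM. FPKM counts the fragments of a transcript relative to its length in kilobases and to all fragments mapped in that library.

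The samples were kidneys of C57BL/6 mice aged 11 weeks, 3 biological replicates in each of 6 groups. In the UIR groups (unilateral ischemia-reperfusion) the vessels of the right kidney had been clamped for 45 minutes and the left kidney left intact, and the mice were killed 1, 3 or 21 days later. The sham groups, at the same days, had surgery without the clamp. All libraries came from total RNA of whole kidney. Which kidney was sequenced, and whether the RNA was selected by its poly(A) tail or depleted of ribosomal RNA, are not given in the sources used here.

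The core histones H2A, H2B, H3 and H4 form the protein spool of the nucleosome, and H1 binds the linker DNA between nucleosomes. Most clustered histone genes are transcribed in S phase, under the coactivator NPAT, when new DNA needs new nucleosomes. Their mRNAs usually have no poly(A) tail and end instead after a stem-loop that is bound by SLBP, and they decay quickly when DNA synthesis stops. Some copies can also give longer, polyadenylated mRNAs, which are found in cells that no longer divide. The adult kidney divides little, and tubule cells re-enter the cell cycle after ischemic injury.

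The sums of FPKM per library ran from 424207 to 549490. The 8 markers of kidney segments, from podocyte to collecting duct, were above 0 in every group. The summed FPKM of 8 proximal tubule markers was 50039 ± 4515 in sham kidneys and 805 ± 72.8 in UIR kidneys at day 3, and that of 10 monocyte and macrophage markers was 62.0 ± 4.32 and 589 ± 254 (SD, n = 3 each). At day 21 the proximal tubule sum was 40943 ± 3017 in sham and 1002 ± 630 in UIR kidneys, and the macrophage sum was 63.1 ± 6.37 and 3966 ± 740. In such tissue RNA, fewer cells of a type and less RNA per cell cannot be told apart. Over all genes tested, the median log2 folds of UIR over sham were -0.03, 0.44 and 0.53 at days 1, 3 and 21, and folds of single genes stand beside these values.

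Copies of a type are so alike that reads can be divided between them. Coding sequences of equal length (without the stop codon) had a median identity of 91.7% among H2a members, 94.4% among H2b, 97.6% among H3 and 93.9% among H4 members, in GENCODE vM21 transcripts of GRCm38. Hist1h2ap and Hist1h2ao had identical coding sequences of 390 bases, and their transcripts shared a run of 452 bases. Hist2h2aa1 and Hist2h2aa2 also had identical coding sequences and shared a run of 528 bases. Hist1h2bq and Hist1h2br held the same value in all 18 libraries. The sums per histone type are therefore given first, and single copies with an identical partner also as the sum of both.

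The ends of the transcript models differed among the 12 genes that were measurable, and those ends are the part of the sequence that marks how a histone mRNA is made. Below are the stem-loops of 6 of them with the bases beside them, as far as the model goes, read from the sense strand with the stem-loop letters in capitals (searched as GG, any 2 bases, CTTTT, any base, AG, any base, GCC, on the transcript strand only).
Hist1h2ap: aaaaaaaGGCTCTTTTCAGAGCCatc
Hist1h2ao: aaaaaaaGGCTCTTTTCAGAGCCatccaca
Hist2h2aa1: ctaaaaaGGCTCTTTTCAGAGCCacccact
Hist1h4h: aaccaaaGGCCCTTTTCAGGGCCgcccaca
Hist3h2a: caccaaaGGCTCTTTTCAGAGCCacccaca
Hist1h1c: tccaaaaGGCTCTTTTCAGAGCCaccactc
The annotated transcripts of Hist1h2ap, Hist1h2ao, Hist2h2aa1, Hist2h2aa2 and Hist1h4h end within 100 bases of the stem-loop. Those of Hist1h1c, Hist3h2a, Hist3h2ba, Hist2h3c2 and Hist1h4i run more than 100 bases past it. The models of Hist1h2bc (1156 bases) and Hist2h2be (2620 bases) hold no such stem-loop. The letters AATAAA of a polyadenylation signal stand in the last 40 bases of 4 of the 12, shown here with the signal in capitals.
Hist2h2be: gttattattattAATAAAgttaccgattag
Hist1h1c: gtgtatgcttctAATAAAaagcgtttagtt
Hist3h2a: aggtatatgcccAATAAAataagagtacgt
Hist3h2ba: cataatggtattAATAAAtttggttcaatt
Of the 55 members with a model, 36 held the stem-loop letters, against 0.085% of 58797 protein-coding transcripts, and 12 held AATAAA in the last 40 bases, against 39.3% of those transcripts. These are features of the annotation and say nothing of which end the sequenced RNA had.

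The 150 bases before the annotated start are shown for the H2a copies that rose most, and for the main H2a copy of sham kidney, because these moved in opposite directions. The sequences are from RefSeq, build GRCm38.p6, with the letters CCAAT (or ATTGG, the same on the other strand) in capitals, the box bound by NF-Y.
Hist1h2ap, chr13:21833476-21833625, minus strand: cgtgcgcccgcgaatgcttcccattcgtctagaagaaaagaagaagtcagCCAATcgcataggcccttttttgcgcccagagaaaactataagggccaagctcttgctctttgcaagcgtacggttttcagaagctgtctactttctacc
Hist1h2ao, chr13:21810217-21810366, plus strand: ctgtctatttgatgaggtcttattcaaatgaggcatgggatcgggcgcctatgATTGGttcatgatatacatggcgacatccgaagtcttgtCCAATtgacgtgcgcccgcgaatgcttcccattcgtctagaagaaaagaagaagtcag
Hist2h2aa1, chr3:96245347-96245496, plus strand: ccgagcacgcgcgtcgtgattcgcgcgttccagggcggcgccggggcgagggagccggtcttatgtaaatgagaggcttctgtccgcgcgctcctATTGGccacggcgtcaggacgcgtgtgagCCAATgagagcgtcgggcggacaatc
The windows of Hist1h2ap and Hist1h2ao, each from 250 bases before to 50 after the start, shared a run of 200 bases. The run was set off by 100 bases and is all that windows of this length can share at that offset. The annotated starts of these copies thus lie at different places in a shared sequence, and the places of CCAAT before them differ with that. CCAAT was in 42 of the 50 members with a RefSeq promoter (84%) and in 37.4% of 32851 promoters of the same length. It was in every matched H1, H2a, H2b and H3 promoter and in 3 of 11 H4 promoters. TATAAA was in 54% of the members' promoters and in 13.6% of all. The octamer ATTTGCAT was in 6 of 15 H2a and 4 of 9 H2b promoters (20% of the members, 1.74% of all), and TTCCCGC, letters of an E2F site, was in 4 of 11 H4 promoters (10% of the members, 4.6% of all). All were searched on both strands, and none of these motifs contains another.

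By histone type, the sums moved apart after clamping. At day 1 the summed FPKM of H2a, H2b, H3 and H4 lay below sham in every library, and at day 3 H2a lay far above sham while H2b stayed far below it. The H2a sum was 91.2, 106.6 and 82.3 FPKM in sham kidneys of day 3 and 288.1, 190.3 and 328.8 FPKM in UIR kidneys of day 3 (replicates 1 to 3). The H2b sum was 219.1, 222.2 and 215.1 FPKM in sham and 74.3, 80.5 and 76.0 FPKM in UIR kidneys of that day. Neither pair of groups overlapped. Over single genes, UIR and sham groups did not overlap for 61.3% of the 14716 genes tested at day 1 (29.5% above sham, 31.7% below), 78.7% at day 3 (59.3% and 19.4%) and 84.3% at day 21 (62.8% and 21.5%). H2a made up 25.9% ± 2.03 of all members' FPKM in sham and 67.5% ± 6.99 in UIR kidneys at day 3, and H2b 60.9% ± 2.25 and 20.0% ± 4.53 (SD, n = 3 each). The sum over all 56 genes overlapped between the groups, at 360 ± 19.1 FPKM in sham and 394 ± 67.6 in UIR kidneys of day 3.

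**Figure D1:**
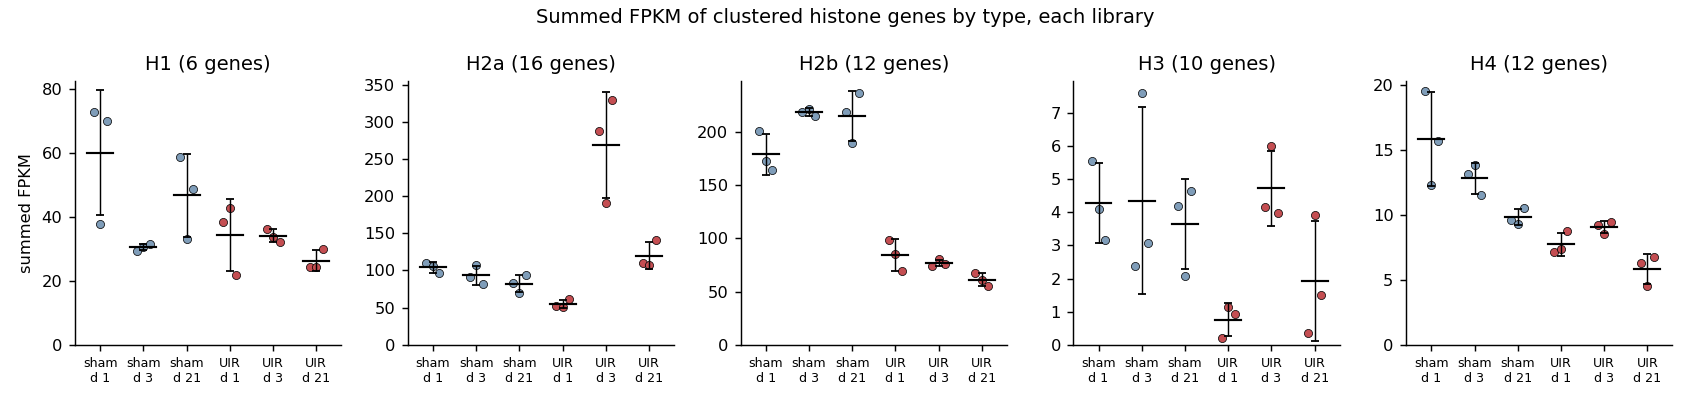
Summed FPKM of the members of each histone type (vertical axis) in each library (points) of the 6 groups, with the mean (line) and SD (bars, n = 3). At day 3 the 3 UIR libraries reach 190.3 to 328.8 FPKM for H2a, above every sham library, and 74.3 to 80.5 FPKM for H2b, below every sham library.

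As log2 folds of log2(sum + 1), UIR over sham, H2a had -0.91 ± 0.19, 1.49 ± 0.19 and 0.53 ± 0.19 at days 1, 3 and 21 (± SE, from the fit over 18 libraries, with no test of sums). H2b was -1.09 ± 0.13, -1.50 ± 0.13 and -1.80 ± 0.13 at the same days. The H4 sum was low throughout, at -0.93 ± 0.15, -0.46 ± 0.15 and -0.68 ± 0.15, and at each day the groups did not overlap. The H1 sum was -0.79 ± 0.29 at day 1, where the groups overlapped, 0.15 ± 0.29 at day 3 and -0.78 ± 0.29 at day 21. H3 was -1.60 ± 0.47 at day 1, without overlap, and 0.20 ± 0.47 and -0.82 ± 0.47 later, with overlap. Leaving out single libraries gave H3 folds of -0.067 to 0.60 at day 3 and -1.29 to -0.36 at day 21. With all 64 rows summed, the H3 fold of day 21 was 0.26 ± 0.35, because the left-out copy Hist2h3c1 had 3.85 and 3.44 FPKM in 2 UIR libraries of that day. These folds are on the deposited scale, and some directions depend on it. The H2a fold of day 21 was -0.085 after median-of-ratios scaling, which sets the median gene near 0, and the H1 fold of day 3 was -0.37. The H3 fold of day 3 was -0.46 after quantile normalization and -0.55 over the members that passed the filter. The fold over all members at day 3 was 0.12 as deposited and -0.42 after median-of-ratios scaling.

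Of the 56 members, 12 passed the filter of at least 1 FPKM in at least 3 libraries and were tested with all 14716 genes that passed it. They are Hist1h1c, Hist1h2ao, Hist1h2ap, Hist2h2aa1, Hist2h2aa2, Hist3h2a, Hist1h2bc, Hist2h2be, Hist3h2ba, Hist2h3c2, Hist1h4h and Hist1h4i. A gene that is high in 1 group only passes through that group, so these 12 do not stand for all 56. The test was limma on log2(FPKM + 1) with Benjamini-Hochberg adjustment over the 14716 genes and a threshold of 0.05. At day 1, 7 of the 12 were lower in UIR than in sham kidneys and 0 were higher, where 59.6% of all genes tested passed the threshold (31.1% lower, 28.5% higher). With an unadjusted p under 0.05 in limma the counts were also 7 and 0, and the share of all genes at that cut is not given here. At day 3, 5 were higher and 3 lower, against 75.5% of all genes (57.6% higher, 17.9% lower). At day 21, 4 were higher and 5 lower, against 80.8% of all genes (60.7% higher, 20.1% lower). The median log2 fold of the 12 was -0.84, 0.26 and -0.09 at days 1, 3 and 21.

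**Figure D2:**
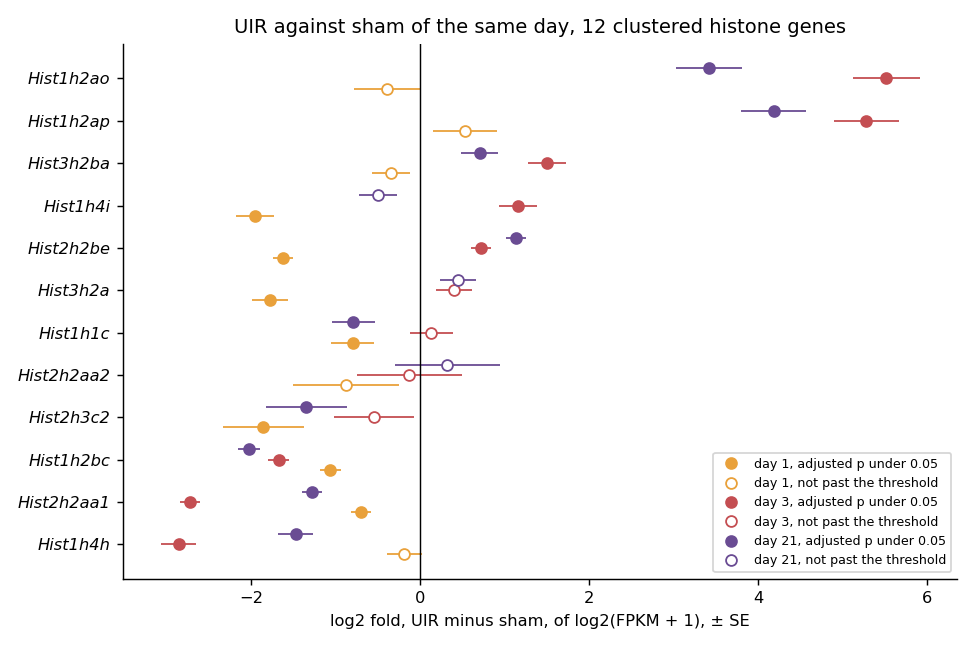
Log2 fold of UIR over sham of the same day on log2(FPKM + 1) (horizontal axis, ± SE) for the 12 tested genes (rows), with filled points where limma's adjusted p was under 0.05. Hist1h2ao and Hist1h2ap stand at 5.52 and 5.28 at day 3, and Hist1h4h, Hist2h2aa1 and Hist1h2bc lie on the other side of 0 at days 3 and 21.

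Hist1h2ap (Entrez gene 319171), an H2a copy of the large cluster, was low in sham kidney and rose strongly by day 3 after UIR. It stood at 3.55, 0.76 and 1.53 FPKM in sham kidneys of day 1, 4.33, 2.58 and 2.88 of day 3 and 1.22, 1.19 and 3.26 of day 21. In UIR kidneys it stood at 1.67, 3.90 and 3.68 FPKM at day 1, 161.3, 119.1 and 223.7 at day 3 and 42.1, 35.5 and 78.0 at day 21. Every UIR library of days 3 and 21 lay above every sham library, and at day 1 the groups overlapped. The log2 fold was 5.28 ± 0.38 at day 3 (limma, adjusted p = 4.1e-09) and 4.18 ± 0.38 at day 21 (limma, adjusted p = 3.9e-08), and 0.53 ± 0.38 at day 1 (limma, adjusted p = 0.24). Within the UIR kidneys it fell by 1.71 ± 0.38 on the log2 scale from day 3 to day 21 (limma, adjusted p = 0.0012).

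Hist1h2ao (Entrez gene 665433), the copy with the same coding sequence, followed. It was listed at 0 in 2 of 3 sham kidneys of day 1, 2 of 3 of day 3 and 1 of 3 of day 21, with a highest sham value of 1.53 FPKM, and at 0 in all 3 UIR kidneys of day 1. It was 88.4, 35.1 and 74.8 FPKM in UIR kidneys of day 3 and 14.3, 16.1 and 11.5 FPKM of day 21, again with no overlap with sham. The fitted log2 folds, 5.52 ± 0.39 (limma, adjusted p = 3.5e-09) and 3.42 ± 0.39 (limma, adjusted p = 6.2e-07), depend on the pseudocount of 1, because 3 of the 6 control values of these days are at 0. They ran from 3.61 to 7.92 and from 1.80 to 5.22 over the alternatives tried. Summed over both copies, which removes how reads were divided between them, the level was 249.7, 154.3 and 298.5 FPKM in UIR kidneys of day 3 and 56.5, 51.6 and 89.5 FPKM of day 21, against at most 4.41 FPKM in any sham library. The sum lay above every sham library in each UIR library of both days, whichever share each copy took. It does not settle reads shared with other H2a copies. Hist1h2ag, for example, differs from both by 3 of 390 coding bases.

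Hist2h2aa1 (Entrez gene 15267), an H2a copy of the second cluster and the main H2a transcript of sham kidney, moved the other way. It was 70.8, 77.8 and 64.0 FPKM in sham kidneys of day 3 and 11.2, 10.4 and 8.17 FPKM in UIR kidneys of day 3. At day 1 it was 68.8, 73.2 and 63.9 FPKM in sham and 43.0, 39.7 and 43.0 in UIR kidneys, and at day 21 57.9, 48.8 and 67.1 in sham and 21.6, 23.2 and 24.6 in UIR kidneys. The groups did not overlap at any day. The log2 folds were -0.70 ± 0.12, -2.73 ± 0.12 and -1.28 ± 0.12 at days 1, 3 and 21 (limma, adjusted p = 1.1e-04, 1.5e-11 and 5.3e-08). In UIR kidneys it rose by 1.15 ± 0.12 on the log2 scale from day 3 to day 21 (limma, adjusted p = 7.1e-07). Its identical partner Hist2h2aa2 was low and scattered, from 0 to 4.15 FPKM over the 18 libraries, and passed the threshold at no day, although leaving out UIR replicate 3 of day 1 gave -1.54 (limma, adjusted p = 0.039). The sum of both was 63.9 to 79.4 FPKM in sham and 9.19 to 11.2 FPKM in UIR kidneys of day 3.

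The change of H2a came with another make-up by copy. Hist2h2aa1 held 76.1% ± 2.74 of the H2a sum in sham and 3.94% ± 1.48 in UIR kidneys at day 3, while Hist1h2ap held 3.56% ± 1.17 and 62.2% ± 6.02 and Hist1h2ao 0.62% ± 1.07 and 24.0% ± 6.20 (SD, n = 3 each). At day 21 in UIR kidneys Hist2h2aa1 held 19.5% ± 2.02 and Hist1h2ap 42.2% ± 11.8.

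**Figure D3:**
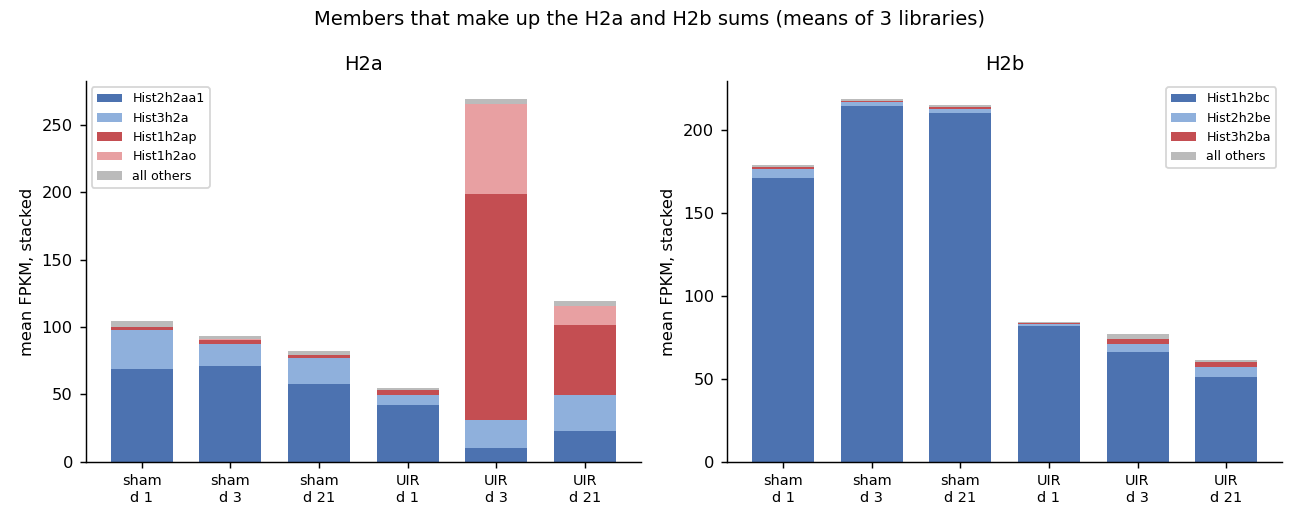
Mean FPKM of 3 libraries of the members that make up the H2a sum (left) and the H2b sum (right), stacked, for the 6 groups on the horizontal axis. At day 3 after UIR the H2a bar consists mainly of Hist1h2ap (62.2%) and Hist1h2ao (24.0%), where Hist2h2aa1 made up 76.1% of the sham bar, and the H2b bar keeps Hist1h2bc as its main part.

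Hist3h2a (Entrez gene 319162), an H2a gene of the third cluster whose model carries both a stem-loop and a distant polyadenylation signal, fell at day 1. It was 33.1, 27.1 and 27.4 FPKM in sham and 6.40, 6.59 and 11.0 FPKM in UIR kidneys of day 1, without overlap. The log2 fold was -1.78 ± 0.21 at day 1 (limma, adjusted p = 2.8e-06). At day 3 it was 15.2, 22.8 and 11.0 FPKM in sham and 22.2, 23.2 and 17.8 in UIR kidneys, a log2 fold of 0.40 ± 0.21 (limma, adjusted p = 0.098). Leaving out sham replicate 2 gave 0.66 (limma, adjusted p = 0.0062). At day 21 it was 20.5, 17.9 and 19.5 FPKM in sham and 28.9, 27.1 and 24.1 in UIR kidneys, without overlap, a log2 fold of 0.45 ± 0.21 (limma, adjusted p = 0.061). Of 16 alternatives 4 called it higher at day 21 and 3 at day 3, while after median-of-ratios scaling the folds were -0.15 and -0.11 (limma, adjusted p = 0.52 and 0.65).

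Among H2b genes, Hist1h2bc (Entrez gene 68024) was the most abundant clustered histone transcript of sham kidney and fell at each day. Its 1 matched model holds no stem-loop letters, and the last AATAAA of that model stands 447 bases from the end. The gene is one of the copies known as polyadenylated in differentiated tissue, and which end its RNA had here is not known. It was 191.5, 165.2 and 156.9 FPKM in sham and 96.3, 83.3 and 65.9 in UIR kidneys of day 1. It was 215.8, 216.9 and 210.9 against 63.3, 70.9 and 65.1 FPKM at day 3, and 213.3, 186.1 and 232.4 against 56.2, 51.6 and 44.9 FPKM at day 21. No UIR library reached a sham library. The log2 folds were -1.07 ± 0.13, -1.68 ± 0.13 and -2.03 ± 0.13 (limma, adjusted p = 2.8e-06, 6.8e-09 and 4.8e-10). It held 98.0% ± 0.44 of the H2b sum in sham and 86.3% ± 1.55 in UIR kidneys of day 3.

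The other tested H2b genes went the opposite way at the later days. Hist2h2be (Entrez gene 319190), whose long model ends at a polyadenylation signal, was 6.32, 5.32 and 5.36 FPKM in sham and 0.88, 1.05 and 1.58 in UIR kidneys of day 1. It was 2.64, 2.52 and 2.34 against 4.35, 4.91 and 4.99 FPKM at day 3, and 2.46, 2.21 and 2.54 against 7.17, 5.47 and 6.83 FPKM at day 21. It lay below sham at day 1 and above sham at days 3 and 21, without overlap. The log2 folds were -1.63 ± 0.12 (limma, adjusted p = 1.6e-08), 0.72 ± 0.12 (limma, adjusted p = 4.6e-05) and 1.13 ± 0.12 (limma, adjusted p = 2.1e-07), and after quantile normalization those of days 3 and 21 no longer passed the threshold. Hist3h2ba (Entrez gene 78303) was 0.30, 0.75 and 0.24 FPKM in sham and 4.08, 2.86 and 2.25 in UIR kidneys of day 3. Its log2 fold was 1.499 ± 0.22 at day 3 (limma, adjusted p = 1.3e-05) and 0.70 ± 0.22 at day 21 (limma, adjusted p = 0.0081), where quantile normalization turned it to -0.22, and median-of-ratios scaling (0.31; limma, adjusted p = 0.22) and leaving out UIR replicate 1 ended the call.

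Of the H4 genes, Hist1h4h (Entrez gene 69386) fell and Hist1h4i (Entrez gene 319158) rose at day 3. Hist1h4h, whose model ends soon after the stem-loop, was 6.84, 9.66 and 9.30 FPKM in sham and 0.41, 0.19 and 0.33 FPKM in UIR kidneys of day 3. Hist1h4i was 3.00, 2.53 and 1.81 FPKM in sham and 6.65, 6.40 and 6.70 in UIR kidneys of that day. The groups of each gene did not overlap, in opposite directions. The log2 folds at day 3 were -2.86 ± 0.21 (limma, adjusted p = 4.7e-09) for Hist1h4h and 1.15 ± 0.22 (limma, adjusted p = 2.1e-04) for Hist1h4i, the latter ending at 0.50 (limma, adjusted p = 0.062) after quantile normalization. Hist1h4h held 67.5% ± 14.5 of the H4 sum in sham and 3.38% ± 1.11 in UIR kidneys of day 3, and Hist1h4i 18.9% ± 3.58 and 72.6% ± 2.08 (SD, n = 3 each).

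At day 1 Hist1h4i was 8.19, 6.25 and 5.94 FPKM in sham and 1.08, 0.98 and 0.92 in UIR kidneys, a log2 fold of -1.96 ± 0.22 (limma, adjusted p = 2.0e-06). At day 21 its fold was -0.50 ± 0.22, at an adjusted p of 0.050003 in limma just above the threshold, and 8 of 16 alternatives took it below. Hist1h4h did not pass at day 1, at -0.19 ± 0.21 (limma, adjusted p = 0.46; without sham replicate 2, -0.47 and 0.033), and was lower at day 21, at 1.61, 1.22 and 0.61 FPKM against 4.71, 4.84 and 5.02 FPKM in sham (log2 fold -1.48 ± 0.21, limma adjusted p = 6.8e-06). The third H4 gene by level, Hist1h4c, did not pass the filter and had at most 1.62 FPKM.

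Hist1h1c (Entrez gene 50708), which encodes a linker histone, held 96.9% to 99.4% of the H1 sum in every group on average. It was 72.2, 37.3 and 69.4 FPKM in sham and 37.4, 42.4 and 21.4 in UIR kidneys of day 1, so that the groups overlapped. At day 3 it was 29.3, 29.6 and 31.3 against 35.0, 33.0 and 31.1 FPKM, and at day 21 58.5, 32.7 and 48.0 against 24.2, 23.8 and 29.1 FPKM. The log2 folds were -0.80 ± 0.26 (limma, adjusted p = 0.013), 0.13 ± 0.26 (limma, adjusted p = 0.66) and -0.79 ± 0.26 (limma, adjusted p = 0.0095). The call of day 1 ended without sham replicate 1 (limma, adjusted p = 0.066), without sham replicate 3 (0.061) or without UIR replicate 3 (0.081). Over its 17 alternatives the adjusted p ran from 0.0012 to 0.53. The call of day 21 ended without sham replicate 1 (limma, adjusted p = 0.055). Together with Hist1h2bc and Hist2h2be it made a list of 3 copies known as polyadenylated in differentiated tissue, of which 0 were higher and 3 lower at day 1, 1 higher and 1 lower at day 3, and 1 higher and 2 lower at day 21 (all genes: 28.5% higher and 31.1% lower, 57.6% and 17.9%, 60.7% and 20.1%). The next H1 genes, Hist1h1e and Hist1h1d, stayed at or below 0.53 FPKM.

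Hist2h3c2 (Entrez gene 97114) was the 1 H3 gene past the filter. It was 4.47, 3.64 and 2.44 FPKM in sham and 0.21, 0.51 and 0 FPKM in UIR kidneys of day 1, without overlap, and the log2 fold was -1.86 ± 0.48 (limma, adjusted p = 0.0032). At day 3 the fold was -0.55 ± 0.48 (limma, adjusted p = 0.30). At day 21 it was listed at 0, 3.47 and 0 FPKM in UIR and at 3.88, 2.09 and 3.90 FPKM in sham kidneys, which overlap. The call of day 21, -1.35 ± 0.48 (limma, adjusted p = 0.016), ended without UIR replicate 1, UIR replicate 3 or sham replicate 3, with adjusted p up to 0.089 in limma. In the UIR libraries where it was at 0, Hist2h3c1, an H3 copy of the same cluster that was at 0 in all other libraries, was listed at 3.85 and 3.44 FPKM. The sum of both copies at day 21 was 3.85, 3.47 and 3.44 FPKM in UIR and 3.88, 2.09 and 3.90 FPKM in sham kidneys, so the lower call of Hist2h3c2 at day 21 does not hold for the sum.

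**Figure D4:**
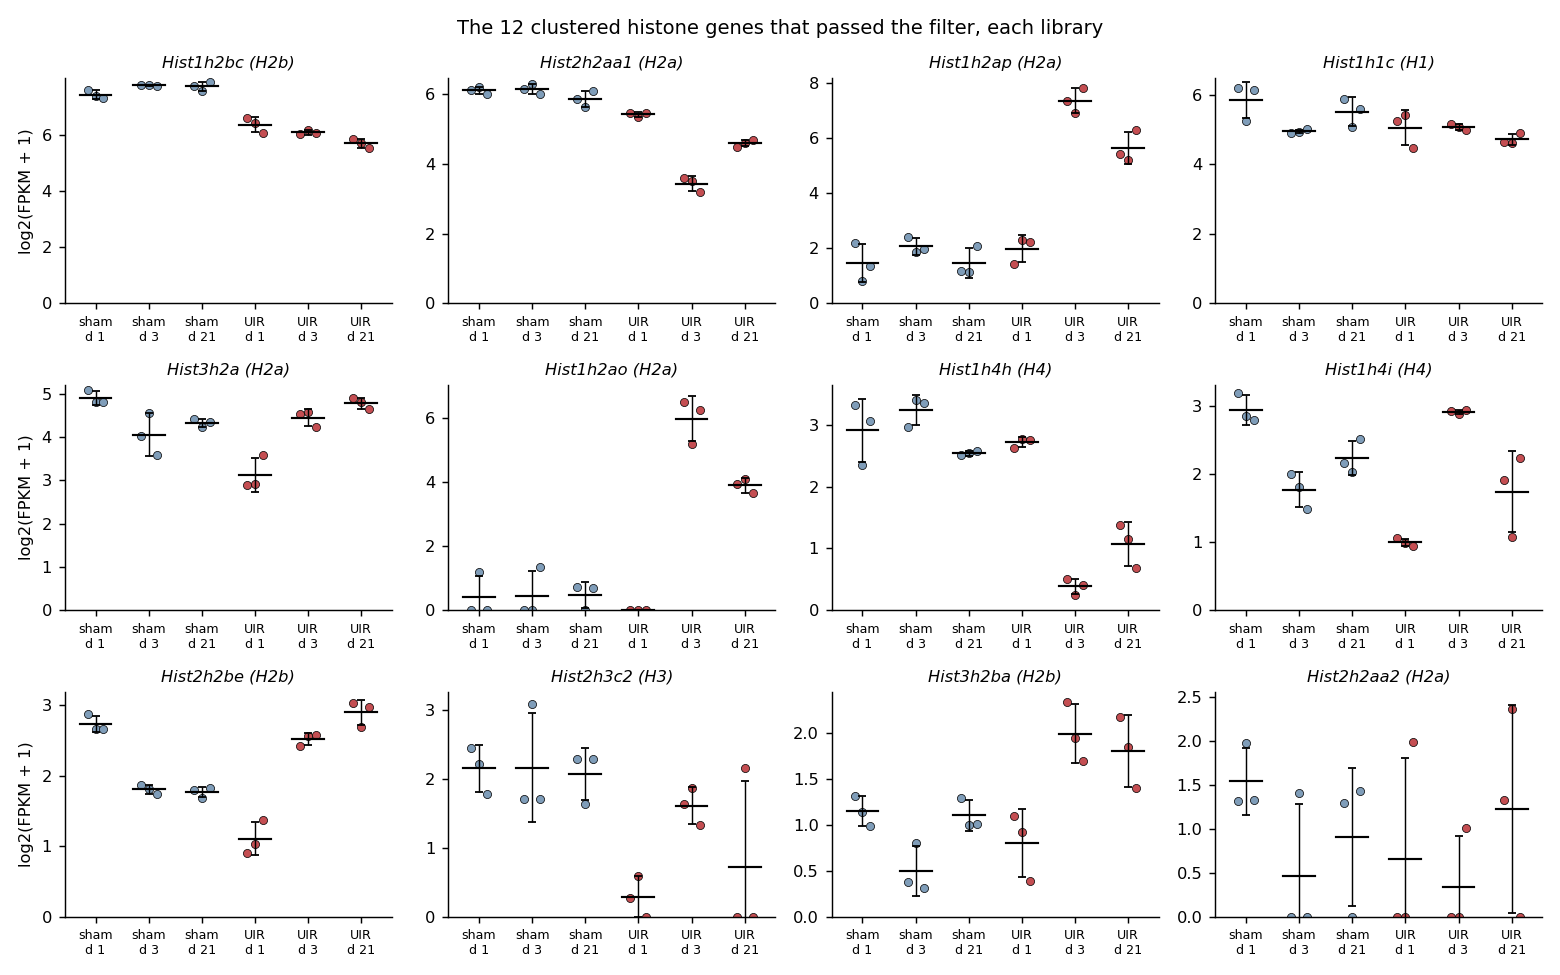
Log2(FPKM + 1) of each of the 12 genes past the filter (panels, in order of mean FPKM) in each library (points), with the mean (line) and SD (bars, n = 3), sham in blue and UIR in red. Hist1h2ap and Hist1h2ao stand above every sham library at days 3 and 21, Hist1h2bc and Hist2h2aa1 stand below sham at each day, and Hist1h4i, Hist2h2be and Hist3h2a are at their lowest in UIR kidneys of day 1.

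The 44 members below the filter had at most 1.73 FPKM, and 57.6% of their 792 values were 0. The number of them above 0 in a library was 16 to 20, 10 to 18 and 12 to 20 in sham kidneys of days 1, 3 and 21. In UIR kidneys it was 13 to 18, 25 to 30 and 17 to 26. Their summed level was 5.84 ± 0.93 FPKM in sham and 12.2 ± 1.62 FPKM in UIR kidneys of day 3 (SD, n = 3 each), at most 3.75% of the members' FPKM in any library. More of the low copies were above 0 in each UIR kidney of day 3 than in any sham kidney. Copies such as Hist1h1b and Hist1h2ai meet the rule only through UIR libraries, so this count and the summed level can partly follow from the rule. By a higher cut, detection was wider in UIR kidneys of day 3 over all genes too. Genes of at least 1 FPKM numbered 13243 to 13519 in UIR kidneys of day 3 and 12000 to 12578 in sham kidneys. Hist1h3d, an H3 copy, was listed at 0 in all 9 sham and all 3 UIR kidneys of day 1, at 0.37, 1.36 and 0.36 FPKM in UIR kidneys of day 3 and at 0.23, 0.30 and 0.46 FPKM of day 21. The low H3 members together were at 0.14 to 0.81 FPKM in sham and 2.07 to 3.35 FPKM in UIR kidneys of day 3. The low H2b members include a pseudogene, Hist3h2bb-ps. The testis copy Hist1h1t, a member, had at most 0.19 FPKM. With the filter lowered to a value above 0 in at least 3 libraries, all 56 members were tested. Limma then called 18 members higher at day 3, against 47.7% of 19540 genes (62% called in either direction, 14.3% lower). At day 21 it called 10 higher, against 55.2% (71.2% in either direction, 15.9% lower). That filter is the rule that chose the members, and copies such as Hist1h3d pass it only through UIR libraries. The counts can therefore partly follow from the rule. The sequencing depth is unknown, so a gene listed at 0 is only that.

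The effect of clamping differed between days for most tested members, as it did for a large share of all genes tested. From day 1 to day 3 the log2 fold of UIR over sham went up for 7 of the 12 and down for 3 (62.9% of all genes tested differed, 50.1% up and 12.7% down). Between days 1 and 21 it went up for 6 and down for 3 (70.4% of all genes, 54.1% up and 16.3% down), and from day 3 to day 21 up for 2 and down for 4 (46.2% of all genes, 26.1% up and 20.2% down). These comparisons share their libraries with those above. The 2 that went up from day 3 to day 21 were Hist1h4h, by 1.39 ± 0.30 (limma, adjusted p = 0.0013), and Hist2h2aa1, by 1.45 ± 0.17 (limma, adjusted p = 6.9e-06), which were the lowest at day 3. Within UIR kidneys, without sham values, 7 members rose and 2 fell from day 1 to day 3 (66.5% of all genes differed, 49.4% up and 17.1% down), and 3 rose and 4 fell from day 3 to day 21 (56.2%, 32.2% up and 24% down). The 2 that fell from day 1 to day 3 were Hist1h4h, by 2.34 ± 0.21, and Hist2h2aa1, by 1.99 ± 0.12 on the log2 scale (limma, adjusted p = 1.1e-07 and 1.3e-09).

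Several members also changed among the sham groups. At day 3, 5 of the 12 were lower and 1 was higher than in sham kidneys of day 1 (42.5% of all genes tested differed, 29.7% lower and 12.8% higher). The 5 were Hist1h1c at -0.91 ± 0.26, Hist1h4i at -1.18 ± 0.22, Hist2h2be at -0.93 ± 0.12, Hist3h2a at -0.85 ± 0.21 and Hist3h2ba at -0.65 ± 0.22 on the log2 scale, and the 1 higher was Hist1h2bc, at 0.33 ± 0.13 (limma, largest adjusted p = 0.046). That of Hist1h2bc ended without any 1 of 5 of the 6 libraries compared. At day 21, 3 were lower than at day 1 (39.4% of all genes, 27.2% lower and 12.3% higher), namely Hist1h4i, Hist2h2be and Hist3h2a. Between the sham kidneys of days 3 and 21 limma called 0 members (0.034% of all genes, 0.0136% higher and 0.0204% lower), with 2 higher and 2 lower at an unadjusted p under 0.05. With the 6 later sham libraries as the control, 6 of the 7 members that were lower at day 1 after UIR were still lower. The share of all genes that were lower against this control is not given here. Hist1h1c was then at -0.18 ± 0.25 (limma, adjusted p = 0.53), Hist1h4i at -1.01 ± 0.21 and Hist2h2be at -0.68 ± 0.10, each nearer to 0 than against sham kidneys of day 1, and Hist1h2bc was at -1.38 ± 0.11.

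Genes that make, process and load histone mRNA and protein were read from lists of general knowledge. Of 21 genes for histone mRNA transcription and 3′ processing, 20 were tested, and 13 were higher and 4 lower after UIR at day 1, 18 higher and 0 lower at day 3, and 18 higher and 0 lower at day 21. Of all genes tested, 28.5% were higher and 31.1% lower at day 1, 57.6% and 17.9% at day 3, and 60.7% and 20.1% at day 21. The list's median log2 folds were 0.40, 1.01 and 0.79, against -0.03, 0.44 and 0.53 over all genes. Slbp, whose product binds the stem-loop, was 7.27, 7.83 and 8.31 FPKM in sham and 21.7, 19.5 and 24.3 in UIR kidneys of day 3, a log2 fold of 1.37 ± 0.11 (limma, adjusted p = 2.1e-08). Npat, the coactivator of histone genes, had 1.10 ± 0.11 (limma, adjusted p = 1.2e-07). The cyclin E genes that activate NPAT had 2.68 ± 0.15 (Ccne1) and 1.96 ± 0.14 (Ccne2), and the exonuclease gene Eri1 had 1.47 ± 0.10. At day 1, Lsm10, of the U7 particle that cuts histone mRNA, was lower, at -1.50 ± 0.13, as were E2f1 (-0.60 ± 0.13), Sympk (-0.42 ± 0.10) and Cpsf3 (-0.32 ± 0.10). After quantile normalization the list's day 21 count was 6 higher and 4 lower, with a median of -0.02, and after median-of-ratios scaling it was 10 higher and 3 lower.

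Of 18 histone chaperone genes, 7 were higher and 1 lower at day 1, 17 higher and 0 lower at day 3, and 14 higher and 0 lower at day 21, where 28.5%, 57.6% and 60.7% of all genes were higher at these days. The list's median log2 folds were 0.16, 1.12 and 0.82, against -0.03, 0.44 and 0.53 over all genes. The 1 lower at day 1 was Ipo4, an importin gene, at -0.29 ± 0.11. Chaf1b (3.96 ± 0.18) and Chaf1a (2.84 ± 0.15), subunits of the chromatin assembly factor that works at the replication fork, and Asf1b (3.76 ± 0.13) had among the largest folds of day 3. Their counts at day 21 were 10 higher and 5 lower after median-of-ratios scaling.

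Replacement and variant histone genes, whose symbols do not begin with Hist1h to Hist4h, were also read as a list. Their median log2 folds were 0.01, 0.84 and 0.94 at days 1, 3 and 21, against -0.03, 0.44 and 0.53 over all genes. Of 11 such genes, 1 was higher and 3 lower at day 1, and 9 were higher and 1 lower at days 3 and 21 (57.6% and 60.7% of all genes were higher). The 3 lower at day 1 were H2afy2 (-0.74 ± 0.12), H2afv (-0.54 ± 0.10) and H1f0 (-0.40 ± 0.14). H2afz, an H2A variant, was 47.4, 51.7 and 45.7 FPKM in sham and 178.1, 185.8 and 200.2 FPKM in UIR kidneys of day 3, a log2 fold of 1.94 ± 0.11 (limma, adjusted p = 4.0e-10). H2afx, whose product is phosphorylated at DNA breaks, had 2.62 ± 0.15 at day 3, and Cenpa, the centromeric H3, had 3.85 ± 0.19. Of the replacement H3 genes, H3f3b was higher from day 1 on (1.58 ± 0.14, 1.11 ± 0.14 and 1.35 ± 0.14), and H3f3a was at -0.01 ± 0.11, 0.41 ± 0.11 and 1.10 ± 0.11. H2afj was the 1 lower gene at days 3 and 21, at -1.31 ± 0.14 and -0.92 ± 0.14. After median-of-ratios scaling the counts were 6 higher and 2 lower at day 3, and 7 higher and 2 lower at day 21.

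Genes of DNA synthesis and mitosis rose at day 3, and their median fold was smaller at day 21. All 12 genes of G2 and mitosis and 22 of 23 genes of S phase DNA synthesis were higher at day 3 and at day 21, when 57.6% and 60.7% of all genes were. At day 1, 10 S phase genes were higher and 6 lower, and 1 mitosis gene, Plk1, was higher (0.58 ± 0.13), against 28.5% higher and 31.1% lower of all genes. The median fold of the S phase genes was 2.76 at day 3 and 1.09 at day 21, and that of the mitosis genes 4.76 and 1.59. Quantile normalization left 11 S phase genes higher and 2 lower at day 21. Rrm2, the ribonucleotide reductase subunit made in S phase, was 84.6, 69.6 and 104.3 FPKM in UIR kidneys of day 3 and 5.27, 4.66 and 7.42 FPKM of day 21. Hist1h2ap over Rrm2, a ratio of FPKM, was 1.71 to 2.14 in UIR kidneys of day 3 and 7.62 to 10.5 of day 21. In UIR kidneys of day 1 Rrm2 was already 9.05, 10.7 and 13.9 FPKM, against 1.44 to 2.18 FPKM in sham, while Hist1h2ap overlapped with sham, and their ratio was 0.18 to 0.36. In sham kidneys the ratio was 0.53 to 3.94. The ratio of Hist1h2ap over the proliferation gene Mki67 was 8.35 to 20.4, 2.72 to 3.83 and 6.18 to 12.1 in UIR kidneys of days 1, 3 and 21. In sham kidneys the Mki67 ratio was 1.98 to 14.2. Mki67 itself was only 0.20, 0.34 and 0.18 FPKM in UIR kidneys of day 1 and at most 0.60 FPKM in sham kidneys, so these ratios rest on values near 0. The ratio of Hist1h2ap over Pcna, the sliding clamp of DNA synthesis, was 0.029 to 0.055, 0.98 to 1.62 and 0.64 to 1.19 in UIR kidneys of days 1, 3 and 21. Its values of days 3 and 21 overlapped. The order of the days thus varied with the gene below the line, for Mki67 at day 1 on values near 0, and none was tested.

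**Figure D5:**
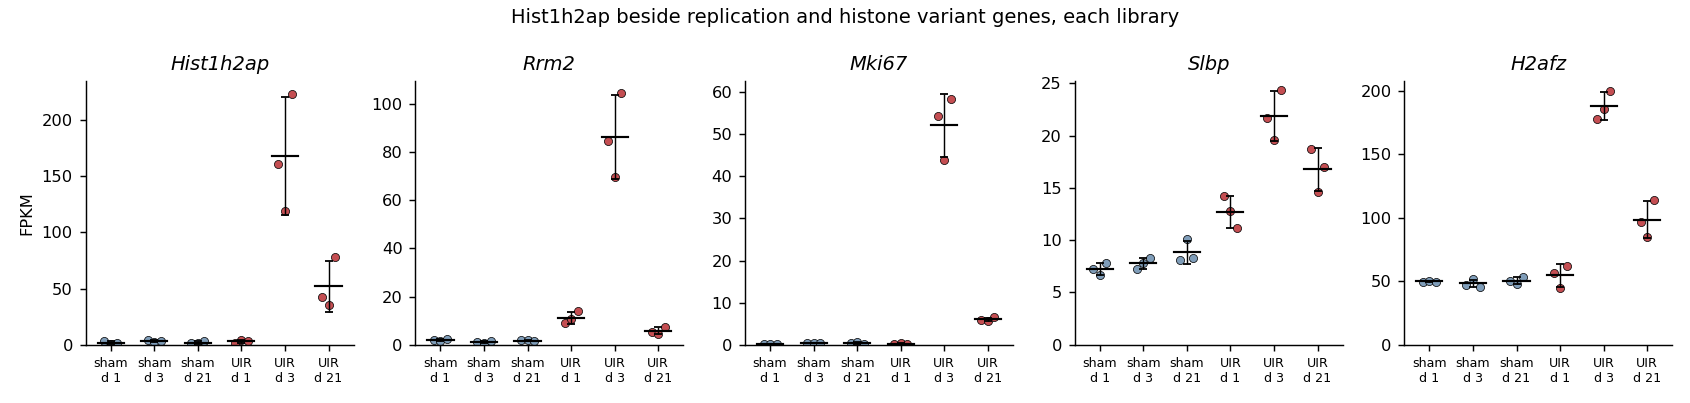
FPKM of Hist1h2ap, the S phase gene Rrm2, the proliferation gene Mki67, Slbp and the H2A variant gene H2afz in each library (points), with the mean (line) and SD (bars, n = 3), sham in blue and UIR in red. Rrm2 and Mki67 stand at 69.6 to 104.3 and 43.8 to 58.4 FPKM at day 3, and at 4.66 to 7.42 and 5.75 to 6.47 FPKM at day 21, while Hist1h2ap keeps 35.5 to 78.0 FPKM at day 21.

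Other cell types and RNA classes moved in the same comparisons. At day 3 the summed T cell markers (7 in the table, none at 0 in all libraries of a group) were 3.71 to 6.63 FPKM in sham and 8.78 to 47.8 FPKM in UIR kidneys, and at day 21 3.46 to 4.63 and 113.4 to 144.1 FPKM. The 10 macrophage markers summed to 58.8 to 66.9 against 327 to 835 FPKM at day 3 and to 56.1 to 68.6 against 3430 to 4811 FPKM at day 21, and the 6 fibroblast markers to 27.0 to 52.5 against 107 to 347 FPKM and to 33.6 to 44.3 against 821 to 927 FPKM. The part of these cells in the histone values was not tested. Of 9 RNAs known to lack a poly(A) tail, 8 were in the table, and their sum was 1.29 to 4.80 FPKM in sham kidneys, 44.6 to 147.5 FPKM in UIR kidneys of day 1, 4.22 to 5.57 FPKM of day 3 and 11.0 to 16.1 FPKM of day 21. Nearly all of the day 1 value was Rn7sk, at 145.7, 84.4 and 41.5 FPKM. UIR kidneys exceeded sham in Rn7sk by a log2 fold of 4.72 ± 0.33, 1.43 ± 0.33 and 2.40 ± 0.33 at days 1, 3 and 21 (limma, adjusted p = 1.0e-08, 9.2e-04 and 4.6e-06). The part of this difference in the histone values was not tested.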

How the data were processed

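RNA-seq of 18 mouse kidneys (6 groups of 3) was deposited as 1 table of FPKM per gene, which the authors computed. The submitters' processing notes list RSEM 1.2.12, Bowtie2 2.2.5 and HISAT2 2.0.4, and mm9 as the build, without their roles. In 2 of the 18 column names the word FPKM is missing, and those values were read as FPKM because their sums (490305 and 521173) are like those of the other sham libraries. Columns were matched to samples by name, and 0 columns were left unmatched. Without counts the depth cannot be known, and intervals of counting error are not given. FPKM is relative to all fragments of a library, so a few very abundant genes can move all others. No 2 libraries held identical values. The replicates are labelled biological.

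From the deposited FPKM, log2(FPKM + 1) was computed here for genes of at least 1 FPKM in at least 3 libraries (14716 genes), so folds of low genes are understated. One limma fit (R 4.3.3, limma 3.58.1, with a mean-variance trend) held all 18 libraries and 6 group means, with 12 residual degrees of freedom and Benjamini-Hochberg adjustment, threshold 0.05. Sums per histone type were fitted alone, with no test. The script was tested on simulated data. Tables were handled in Python 3.11.15 with pandas 2.3.3. Sequences came from GENCODE and RefSeq on GRCm38, not the build of the table. By RefSeq accession, 55 members were matched to a transcript model, and by gene ID 50 to a promoter.

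Genes were named by a rule: per histone type the 3 most abundant members, the 3 largest increases and 2 largest decreases past the threshold at each day, and members called against most of their type; per list genes among the 4 largest changes at a day, and genes called the other way. One gene that this rule names is not reported here. The members and lists were chosen with earlier results of these data known. Alternatives were other pseudocounts, filters, scalings (TPM, median of ratios, quantile), library weights, fits on 6 libraries, a replicate block, later sham kidneys as control and leaving out each library.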

Additional observations from a re-analysis of the deposited data

Results flagged for a closer look

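The effect of clamping is UIR over sham of the same day, on the log2 scale, ± SE. By the interaction term in limma it differed between days for 10 of the 12 tested members. Of all genes tested, 62.9% differed from day 1 to 3, 46.2% from day 3 to 21 and 70.4% from day 1 to 21. The share of all genes that differed in any of these comparisons is not given here. All p below are adjusted over all genes tested, and the comparisons share libraries. Groups of 3 are too small for a check of single outlying libraries.

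Day 3 against day 1 gave the widest differences. The effect on the H2a copies Hist1h2ao and Hist1h2ap was higher by 5.91 ± 0.56 and 4.75 ± 0.54 (limma, adjusted p = 3.1e-07 and 2.1e-06). It was higher by 3.11 ± 0.32 for Hist1h4i, 2.34 ± 0.17 for Hist2h2be, 2.18 ± 0.30 for Hist3h2a, 1.85 ± 0.31 for Hist3h2ba and 0.93 ± 0.36 for Hist1h1c (limma, largest adjusted p = 0.035). It was lower for Hist1h4h (-2.67 ± 0.30), Hist2h2aa1 (-2.03 ± 0.17) and Hist1h2bc (-0.61 ± 0.18; limma, largest adjusted p = 0.0075). With the later sham kidneys as control for day 1 the effect at day 1 on Hist1h1c was -0.18, and the difference between days was not refitted with that control.

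Day 21 against day 3 gave higher effects for Hist2h2aa1 (1.45 ± 0.17) and Hist1h4h (1.39 ± 0.30). Lower effects were those of Hist1h2ao (-2.10 ± 0.56), Hist1h4i (-1.65 ± 0.32), Hist1h1c (-0.92 ± 0.36) and Hist3h2ba (-0.80 ± 0.31), the last 2 near the threshold (limma, adjusted p = 0.048 each).

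Day 21 against day 1 gave higher effects for Hist1h2ao (3.81 ± 0.56), Hist1h2ap (3.65 ± 0.54), Hist2h2be (2.76 ± 0.17), Hist3h2a (2.23 ± 0.30), Hist1h4i (1.46 ± 0.32) and Hist3h2ba (1.05 ± 0.31). Lower effects were those of Hist1h4h (-1.29 ± 0.30), Hist1h2bc (-0.96 ± 0.18) and Hist2h2aa1 (-0.58 ± 0.17; limma, largest adjusted p of the 9 genes 0.0070).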

How the results depend on the processing

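Over settings other than leaving out a library, 187 of 206 counts of members called stayed within 1.5 times, and 131 of 168 folds of sums moved by less than 1 SD. The scalings move all genes. The median gene stood at 0.44 and 0.53 (log2) at days 3 and 21 as deposited, at 0.75 and 0.76 in TPM, at 0.03 and 0.03 after median-of-ratios scaling and at 0.01 and -0.01 after quantile normalization. The share of higher genes among those called was 76.3% and 75.2% as deposited, 84.1% and 80.2% in TPM, 51.3% and 51.0% after median-of-ratios scaling and 51.2% and 49.2% after quantile normalization. The cause of the changes below was not tested.

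In median-of-ratios scaling the sums at day 3 were -0.37 (H1), 0.96 (H2a), -2.03 (H2b), -0.94 (H4) and -0.42 (all), and at day 21 -1.38 (H1), -0.085 (H2a, turned), -2.41 (H2b), -1.22 (H4) and -1.35 (all). In quantile normalization they were 1.79 (H2a), -1.18 (H2b), -0.46 (H3), -0.95 (H4) and 0.48 (all) at day 3 and 0.87, -1.58, -1.59, -1.47 and -0.39 at day 21. In TPM they were 1.78 (H2a), -1.22 (H2b), -0.20 (H4) and 0.40 (all) at day 3, and -1.61 (H2b) and -0.54 (all) at day 21. Pseudocount 0.1 gave -2.54 for H3 at day 1, and pseudocount 5 gave -0.68 for H3 and -0.70 for H4 at day 1 and -0.46 for H4 at day 21. Summing all 64 rows, an alternative chosen after seeing the data, turned H3 at day 21 to 0.26, and leaving out single libraries gave -1.29 to -0.36 there and -0.067 to 0.60 for H3 at day 3. Summing only members past the filter gave -0.55 for H3 at day 3 and -1.07 for H4 at day 21. The later sham control gave -0.17 (H1), -0.66 (H2a), -1.36 (H2b) and -0.49 (H4) at day 1.

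Of the counts, quantile normalization left 3 members higher at day 3, 2 at day 21, 1 lower between sham days 21 and 1 and 1 higher from day 3 to 21 within UIR, and it turned Hist3h2ba at day 21 to -0.22 (limma, adjusted p = 0.35), which was 0.31 after median-of-ratios scaling (limma, adjusted p = 0.22). The lowered filter, the rule that chose the members, tested all 56. It gave 18 higher at day 3 (47.7% of all genes) and 10 at day 21 (55.2% of all genes). It gave 15 with a higher effect at day 3 than at day 1 and 0 higher between sham days 3 and 1. Within UIR it gave 20 higher from day 1 to day 3, and 5 higher and 12 lower from day 3 to day 21. Shares of all genes under this filter are given only for UIR over sham at days 3 and 21. The other counts therefore cannot be set against all genes. Copies such as Hist1h3d and Hist1h2ai pass this filter only through UIR libraries, so counts of higher values in UIR kidneys can partly follow from the rule. TPM gave 0 higher between sham days 3 and 1, and median-of-ratios scaling 1 higher and 1 lower between sham days 21 and 1. Library weights gave 2 higher between sham days 3 and 1, 2 higher and 1 lower between days 21 and 3, and 1 higher between days 21 and 1. Pseudocount 0.1 left 2 members with a lower effect at day 21 than at day 3. Leaving out each library moved that count from 4 to between 2 and 3, sham day 3 against day 1 to 0 to 1 higher and 3 to 5 lower, sham day 21 against day 1 to 0 to 1 higher and 1 to 4 lower, and UIR day 21 against day 3 to 1 to 3 higher.

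No label says that replicate numbers pair the kidneys, and correlations in groups of 3 cannot settle it. Same-numbered sham and UIR libraries correlated in their deviations from the group means at -0.07 to 0.02 at day 1, -0.01 to 0.11 at day 3 and -0.06 to 0.08 at day 21. With the replicate block limma called 0 higher and 7 lower at day 1, 5 and 3 at day 3, and 4 and 6 at day 21, where Hist1h4i was added at -0.50 (limma, adjusted p = 0.043).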
